A study of Mus musculus with 6 samples.

Results

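The I-BAR and WAVE complex genes are a set of 10 genes that shape the cell edge: *Baiap2l1*, *Baiap2* and *Mtss1* of the I-BAR family, their actin-binding partner *Eps8*, and the WAVE complex genes *Nckap1*, *Nckap1l*, *Wasf1*, *Wasf2*, *Cyfip1* and *Abi1*. The set was chosen by 2 of its values, the high signal of *Baiap2l1* and the low signal of *Nckap1l* in *Prdm14*-deficient cells, and the other members were taken because they are paralogues or partners of these 2. Every probe carrying a member's platform symbol was used, which gave 10 probes for 8 of the 10 genes, out of 8343 named genes that were tested. *Baiap2* and *Cyfip1* have no probe in the annotation used here and were not analysed here. All 10 member probes passed the filter on dim probes (it asks for detection at p under 0.01 in 3 or more of the 6 arrays), and 9 of them were detected on all 6 arrays. Expression was compared between *Prdm14* knockout ES cells (3 samples) and wild-type control ES cells (3 samples), both on a C57BL/6 background and both grown in 2i, a medium with inhibitors of MEK and of glycogen synthase kinase-3. Replicates of a genotype came from consecutive passages. The number of lines or clones behind them is not stated, so p-values measure only the spread between these samples.

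I-BAR domains are curved dimers that bind the inner face of the plasma membrane and bend it outwards, and the proteins that carry them link such protrusions to actin through further domains, among them an SH3 domain in BAIAP2 and BAIAP2L1. The WAVE complex answers to the GTPase Rac and switches on the Arp2/3 complex, which nucleates the branched actin of lamellipodia. It is built from a WASF protein, an ABI protein, BRK1, a CYFIP protein and either NCKAP1, found in most tissues, or NCKAP1L (also called HEM1), the form of blood cells.

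Genome-wide, 1986 of 14436 tested probes differed at an adjusted p under 0.01 (13.8%; limma, Benjamini-Hochberg), and 1192 when *Prdm14* knockout replicate 2 was left out. The median signal of an array was 63.5 to 74.8 in knockout samples and 56.8 to 80.6 in wild-type samples. The arrays correlated at 0.990 to 0.994 within a genotype and at 0.958 to 0.962 between genotypes. *Prdm14* itself was not above background on any knockout array and was detected on all 3 wild-type arrays, at least 6.62-fold lower in knockout cells at its brighter probe on the background-corrected scale (signals before correction averaged 75.5 and 400.1). All 6 ES cell markers were measured, with a mean of 12.2 in every knockout sample and 12.0 to 12.1 in the wild-type samples on the log2 scale, and at the brightest probe of each gene only *Sox2* was called (higher in knockout cells by 0.54, adjusted p = 0.00421). The second *Sox2* probe did not pass (0.30, adjusted p = 0.254), while the second *Pou5f1* probe did (0.60, adjusted p = 0.00321).

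*Baiap2l1*, on chromosome 5, was well detected in *Prdm14*-deficient cells and at background in wild-type cells. This adaptor, also known as IRTKS, carries an I-BAR domain and an SH3 domain and recruits actin regulators to the membrane. Its signal before normalization was 1488, 1538 and 1452 in the 3 knockout samples, against 51.5, 71.3 and 80.7 in the 3 wild-type samples. The normalized log2 signal was 10.27, 10.54 and 10.50 in knockout cells (10.4 ± 0.15, SD, n = 3) and 4.58, 4.65 and 4.77 in wild-type cells (4.67 ± 0.10, SD, n = 3). All 3 knockout arrays lay above all 3 wild-type arrays by a gap of 5.50, and no wild-type array had a detection p-value under 0.01. A level at background gives only a bound: taking, on each array, the lowest signal among detected probes where the probe was dimmer than that, *Baiap2l1* was at least 27.5-fold higher in knockout cells. This bound, like that of *Prdm14* and those below, holds only for the background-corrected values used here, with an offset of 16 added to them. Signals before correction, which still contain background, averaged 1493 in knockout cells and 67.8 in wild-type cells, a smaller ratio. The measured means differed by 5.77 on the log2 scale, a size that depended on how background signal was treated, and by 3.44 in the authors' processed values. Since this change chose the gene, no p-value is given.

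The promoter of *Baiap2l1* is shown because this gene carries the change of the set. It is the RefSeq window of 300 bases around the annotated start at chr5:144358063-144358362 of GRCm38.p6, on the minus strand, written 5′ to 3′ along the gene. That of *Wasf2*, a WAVE subunit with a small fitted change, stands beside it at chr4:133130383-133130682, on the plus strand. Capitals mark the GC box GGGCGG on either strand.
*Baiap2l1*: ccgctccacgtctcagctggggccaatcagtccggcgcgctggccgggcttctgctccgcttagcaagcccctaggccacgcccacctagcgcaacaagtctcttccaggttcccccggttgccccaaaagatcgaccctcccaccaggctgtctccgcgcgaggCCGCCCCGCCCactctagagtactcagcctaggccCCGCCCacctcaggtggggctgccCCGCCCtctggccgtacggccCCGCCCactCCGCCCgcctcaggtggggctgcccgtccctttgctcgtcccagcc
*Wasf2*: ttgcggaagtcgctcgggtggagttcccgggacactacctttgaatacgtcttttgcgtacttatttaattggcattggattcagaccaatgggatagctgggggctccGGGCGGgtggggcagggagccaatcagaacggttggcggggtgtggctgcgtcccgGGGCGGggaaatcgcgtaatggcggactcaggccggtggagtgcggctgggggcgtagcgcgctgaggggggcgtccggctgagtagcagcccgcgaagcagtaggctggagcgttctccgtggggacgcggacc

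The window of *Baiap2l1* has 71.0% G and C, 25 CpG dinucleotides (81.6% of the 32851 windows have fewer) and 6 GC boxes, of which the 2 furthest upstream overlap. At least 6 GC boxes stand in 1.35% of all windows of this length, and at least 2, as in *Wasf2*, in 19.5%. It also holds the E-box CACCTG 2 times, on either strand, as at least that many do in 2.88% of windows. *Baiap2*, the closest I-BAR paralogue, has 5 GC boxes in its window (2.71% have as many) and *Wasf1* has 1 (35.7%), while both windows of *Abi1* have none. None of the 6 windows found for 5 members holds GGTCTCTAA, the letters used here for the PRDM14 motif of mouse ES cells, on either strand; 0.256% of all windows do. These are matches of letters only.

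The other measured I-BAR gene did not pass the test. *Mtss1*, on chromosome 15, encodes missing in metastasis, an I-BAR protein with an actin-binding WH2 motif. Its log2 signal was 6.81, 7.24 and 7.39 in knockout cells, against 7.71, 7.70 and 7.48 in wild-type cells. The knockout arrays were all below the wild-type arrays, but the nearest pair stood only 0.08 apart. The fitted difference was -0.48 (SE 0.16; limma adjusted p = 0.0514).

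*Eps8*, on chromosome 6, was the only member past the threshold apart from the 2 whose values chose the set. EPS8 caps and bundles actin filaments and binds BAIAP2 in filopodia and ABI1 in a complex that activates Rac. Its log2 signal was 7.43, 7.50 and 7.27 in knockout cells (7.40 ± 0.12, SD, n = 3) and 6.71, 6.60 and 6.71 in wild-type cells (6.68 ± 0.07, SD, n = 3). The lowest knockout array stood 0.55 above the highest wild-type array. *Eps8* rose in knockout cells by 0.73 (SE 0.10; 1.65-fold; limma adjusted p = 0.00103), and it passed the threshold in all 14 alternative analyses of these data, with differences of 0.37 (the authors' processed values) to 0.79. Its paralogue *Eps8l2*, on the list of its family, went the other way, with log2 signals of 6.73, 6.25 and 6.16 in knockout cells and 7.16, 7.47 and 7.41 in wild-type cells. *Eps8l2* fell by 0.97 (adjusted p = 0.00257), a call held in 10 of 14 alternatives.

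*Nckap1l* was lower in *Prdm14*-deficient cells, while the arrays of both genotypes overlapped for *Nckap1*, which fills the same place in the complex. The *Nckap1l* probe, on chromosome 15, was above background on all 6 arrays. It gave log2 signals of 7.09, 6.86 and 6.99 in knockout cells (6.98 ± 0.11, SD, n = 3), against 8.35, 8.46 and 8.47 in wild-type cells (8.43 ± 0.07, SD, n = 3). The nearest arrays of the genotypes stood 1.26 apart. The fitted difference was -1.45 (SE 0.10), a 2.73-fold lower signal in knockout cells, and it was -0.90 in the authors' processed values. As with *Baiap2l1*, this value chose the gene and carries no p-value here. *Nckap1*, on chromosome 2, gave 9.45, 9.47 and 9.54 in knockout cells and 9.33, 9.42 and 9.46 in wild-type cells. These values overlap, and the difference of 0.08 had a 95% interval of -0.13 to 0.29 (adjusted p = 0.545).

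A pair of measured facts stands beside the loss of *Nckap1l*. Chromosome 15 as a whole ran lower in knockout cells. Over its 336 tested genes the median log2 difference was -0.18, against 0.02 over all genes. Of these 336, 46 were called lower and 11 higher, beside 8.4% and 6.69% of all genes. Relative to the median of chromosome 15, *Nckap1l* was at -1.27 and *Mtss1* at -0.31. Chromosome 11, which carries *Baiap2*, ran lower too (median -0.14 over 724 genes, 103 called lower and 14 higher). On the other chromosomes of members the medians were 0.03 to 0.07. The other fact is that some blood cell genes were lower too. Of 13 blood markers, 6 had a probe and 4 were tested, of which *Was* and *Lcp1* fell and *Coro1a* and *Laptm5* did not pass. The summed signal of the 6 was 7587 to 8369 in knockout samples and 6001 to 9138 in wild-type samples, most of it from *Laptm5*, which stood at 12.8 on the log2 scale in both genotypes. The other 2 were not tested: *Cd48* was above background on no knockout array and on 2 wild-type arrays, and *Vav1* on 1 knockout array and on no wild-type array. *Ptprc*, *Spi1* and *Csf1r*, which define white blood cells, had no listed probe. Whether they were at background or not on the array is not known here. The part of blood cells or of the chromosome in the value of *Nckap1l* was not tested. In such bulk samples, fewer cells of a type and less RNA per cell cannot be told apart.

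The remaining WAVE subunits stayed below the threshold. *Wasf1* and *Wasf2* encode the WAVE proteins that bind Arp2/3, and *Abi1* encodes the Abl interactor that holds the complex together. The *Wasf1* probe, on chromosome 10, gave 10.55, 10.71 and 10.65 in knockout cells and 10.77, 10.70 and 10.78 in wild-type cells. The arrays overlapped, and the difference of -0.12 had an interval of -0.33 to 0.10 (adjusted p = 0.403).

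*Wasf2*, on chromosome 4, had 2 probes. The brighter gave 10.45, 10.27 and 10.09 in knockout cells and 9.90, 9.94 and 9.90 in wild-type cells, a difference of 0.36 (SE 0.11; adjusted p = 0.0445). The dimmer gave 7.55, 7.24 and 6.95 in knockout cells and 6.82, 6.93 and 6.59 in wild-type cells, a difference of 0.47 (SE 0.16; adjusted p = 0.0617). At both probes every knockout array lay above every wild-type array, by as little as 0.02 at the dimmer. *Wasf2* was the only further member called when the threshold was an adjusted p under 0.05.

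*Abi1*, on chromosome 2, also had 2 probes, and the arrays of the genotypes overlapped at both. The brighter gave 9.78, 9.88 and 9.81 in knockout cells and 9.67, 9.73 and 9.78 in wild-type cells, a difference of 0.10 with an interval of -0.11 to 0.31 (adjusted p = 0.471). The dimmer, designed to another transcript record of the gene, gave 7.65, 7.05 and 7.35 in knockout cells and 7.07, 7.02 and 6.77 in wild-type cells, a difference of 0.40 (SE 0.16; adjusted p = 0.0991). The 3 other measured subunits of the complex did not pass either: *Abi2* (-0.12), *Abi3* (0.10) and *Brk1*, the smallest subunit (-0.28, limma adjusted p = 0.0569). The other *Brk1* probe also gave -0.28 (adjusted p = 0.0519). In the authors' processed values *Brk1* was called lower.

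**Figure D1:**
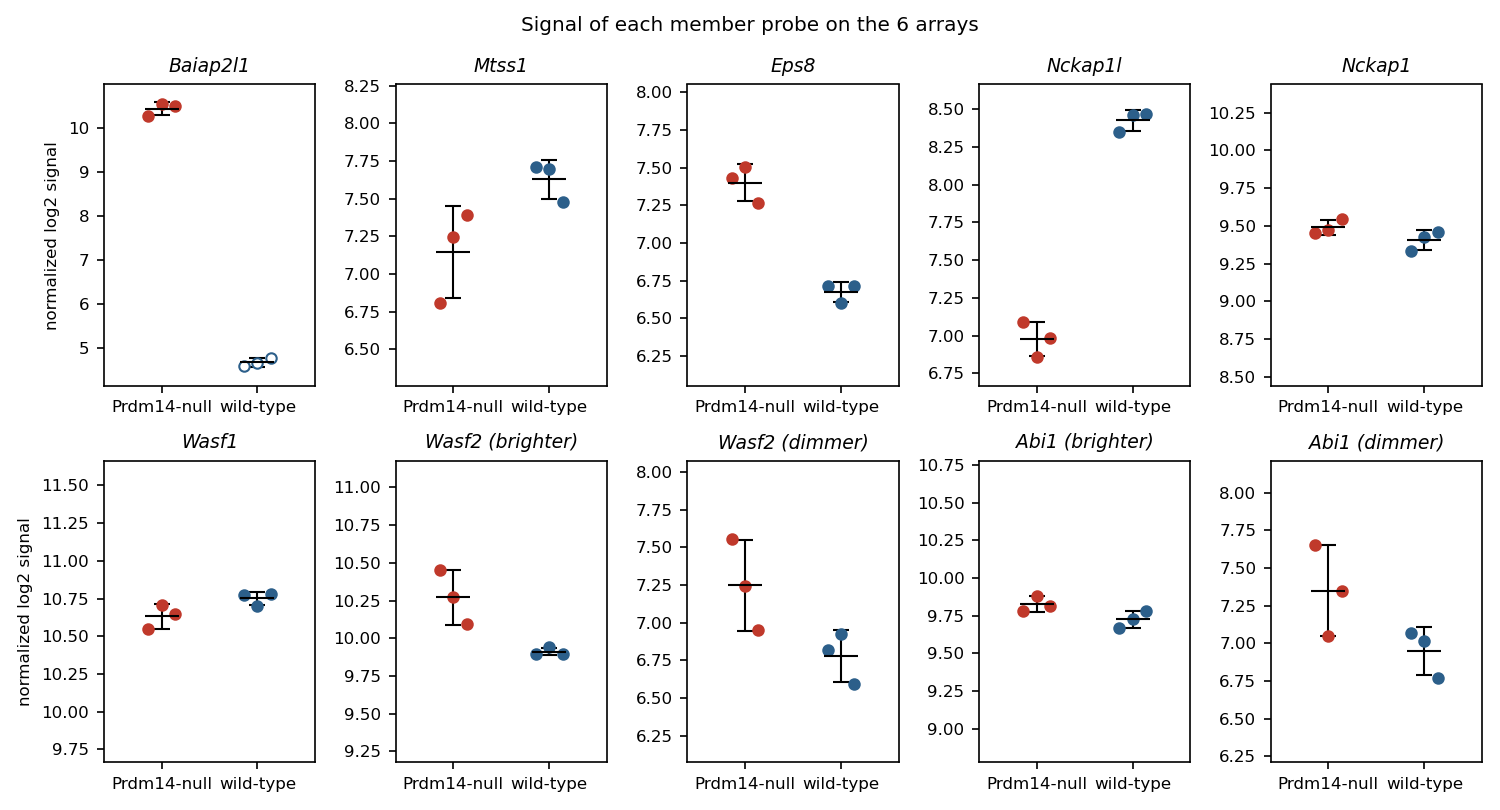
Normalized log2 signal (vertical axis) of each of the 10 member probes in 3 *Prdm14*-null (left) and 3 wild-type (right) samples; points are arrays, open where the probe was not above background, and bars are the mean ± SD. The range of the axis is the same in every panel except that of *Baiap2l1*, whose knockout arrays lie between 10.27 and 10.54 and whose wild-type arrays lie at background.

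Across the set, 3 of 10 probes were past the threshold, beside 13.8% of all tested probes, and this count includes the 2 genes that chose the set. Of the 8 probes of the other 6 genes, 1 was called, the *Eps8* probe. In 4 of those 8 the arrays of the genotypes did not overlap (*Eps8*, *Mtss1* and both *Wasf2* probes), while 42.3% of all tested probes showed no overlap. Fitted differences were above 0 at 6 of the 8 probes and below 0 at 2. Their median size, without sign, was 0.38, against 0.20 for all tested probes. Neither count stands far from the share over the whole array.

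**Figure D2:**
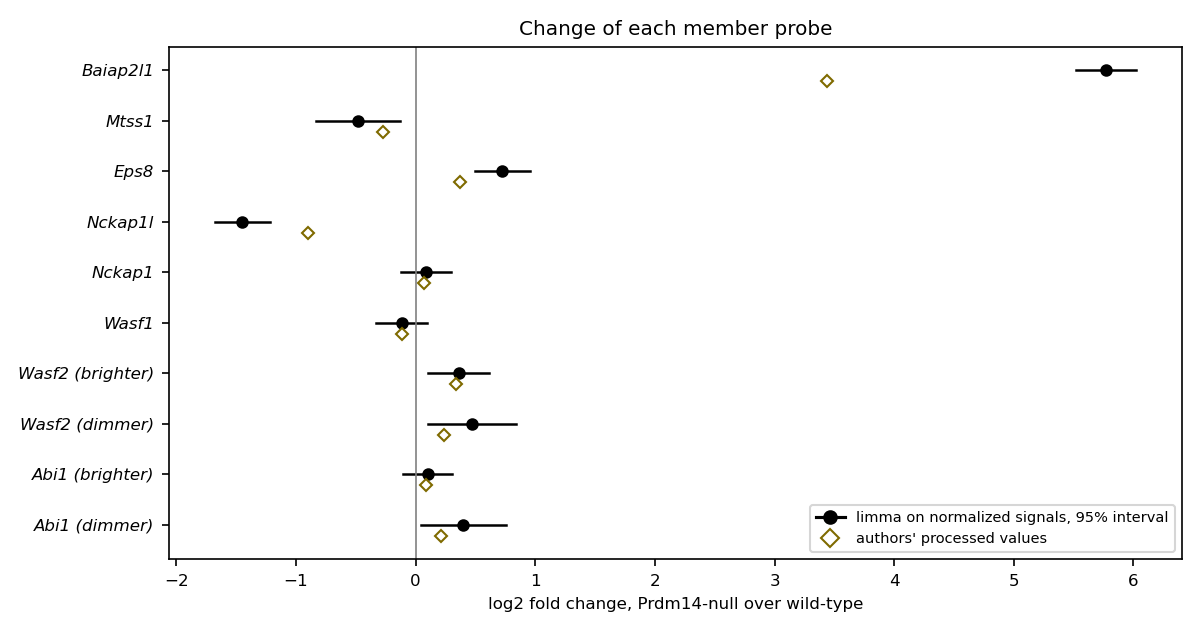
Log2 fold change, *Prdm14*-null over wild-type (horizontal axis), of each member probe; filled circles with bars are the limma estimate and its 95% interval, and diamonds are the same difference in the authors' processed values. *Baiap2l1* (5.77, against 3.44 in the processed values) and *Nckap1l* (-1.45 and -0.90) stand apart from the other probes, which lie between -0.48 and 0.73.

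The genes that act around the I-BAR and WAVE proteins were read from 10 lists written from the pathway, with earlier results of these data known. Of 119 listed genes 81 had a probe and 75 were tested, of which 6 rose, 7 fell and 62 did not pass. These counts, like those of each list below, stand beside 6.69% of all genes called higher and 8.4% called lower. The median log2 difference of the 75 genes was 0.00, against 0.02 over all genes. The other I-BAR genes, *Baiap2l2* and *Mtss2*, had no listed probe. None of the 8 measured genes of the Arp2/3 complex and its partners passed, with differences of -0.26 to 0.22. Without wild-type replicate 3, 8 of the 13 calls were left. *Prex1*, *Gas7* and *Lcp1* passed the filter on dim probes through 1 genotype alone. Their adjusted p-values compare detected signals with values at background.

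**Figure D3:**
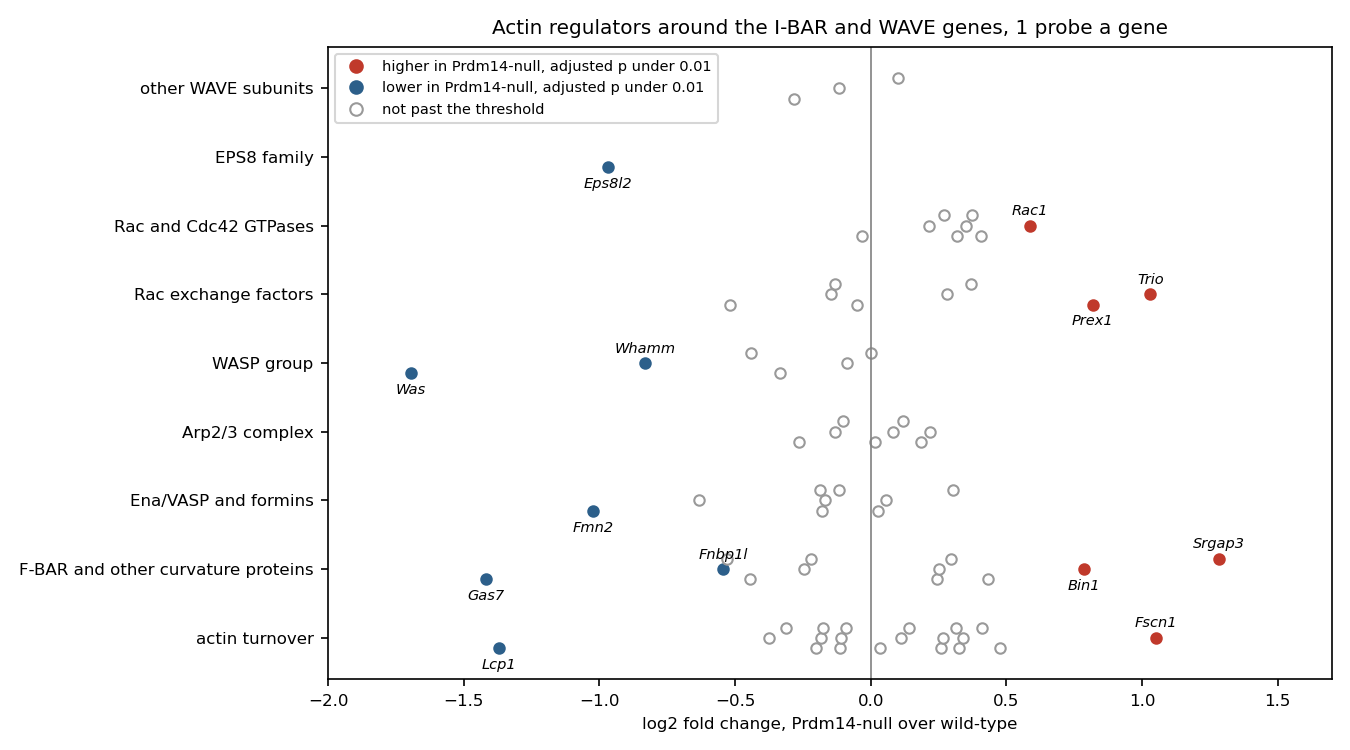
Log2 fold change, *Prdm14*-null over wild-type (horizontal axis), of the 75 tested partner genes by list, at the brightest probe of each gene; red marks genes higher and blue genes lower by limma's adjusted p (threshold 0.01), and open circles mark the others. The 8 genes of the Arp2/3 row lie between -0.26 and 0.22, and called genes reach -1.69 (*Was*) and 1.28 (*Srgap3*).

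The lists of Rac and Cdc42 GTPases and of Rac exchange factors, with 8 tested genes each, held 3 of the higher genes. Over all genes the share called higher was 6.69%. *Rac1*, the GTPase that switches on the WAVE complex, had log2 signals of 8.17, 8.03 and 8.03 in knockout cells and 7.52, 7.60 and 7.36 in wild-type cells, and rose by 0.59 (adjusted p = 0.00362). It was the only call among 8 tested GTPases of the Rac and Cdc42 kind, and it held in 9 of 14 alternatives. Among the alternatives that left out a sample, the *Rac1* call held in only 1. Of 8 tested Rac exchange factors, *Trio* and *Prex1* rose and 6 did not pass. These 6 ran from -0.52 (*Tiam1*, adjusted p = 0.0181) to 0.37 (*Vav2*, adjusted p = 0.0239). *Tiam1* was called lower in some alternatives. *Trio*, which loads Rac and RhoG with GTP, gave 9.08, 9.28 and 9.38 in knockout cells and 8.04, 8.30 and 8.31 in wild-type cells, a difference of 1.03 (adjusted p = 0.000373). *Prex1*, an exchange factor that answers to phosphoinositides, was above background on all knockout arrays and on no wild-type array, and was at least 1.64-fold higher in knockout cells on the background-corrected scale (adjusted p = 0.0012; signals before correction averaged 128 and 94.6).

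The WASP group had 2 lower genes of 6 tested, beside 8.4% called lower over all genes. *Was*, the blood-cell relative of the widely used *Wasl*, gave 5.76, 5.97 and 6.54 in knockout cells and 7.67, 7.95 and 7.74 in wild-type cells, and fell by 1.69 (SE 0.19; adjusted p = 0.000275). *Wasl* itself differed by 0.00, with an interval of -0.32 to 0.33 (adjusted p = 0.994). *Whamm*, a nucleation promoter of Golgi and transport membranes, fell by 0.83 (adjusted p = 0.000632). Of the 9 tested Ena/VASP and formin genes, the formin *Fmn2* fell by 1.02 at its brighter probe (adjusted p = 0.00232; 12 of 14 alternatives) and by 1.02 at the other (adjusted p = 8.09e-05).

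Proteins of other membrane curvature gave calls in both directions, 2 higher and 2 lower among 12 tested. Of all genes, 6.69% were called higher and 8.4% lower. *Srgap3* encodes an inverse F-BAR protein, which like the I-BAR proteins drives outward protrusions. Its log2 signal was 7.23, 7.09 and 7.23 in knockout cells and 5.72, 5.97 and 6.00 in wild-type cells, and it rose by 1.28 (adjusted p = 6.39e-05), and by 0.79 at the other probe (adjusted p = 0.00167). *Bin1*, an N-BAR protein of membrane tubules, rose by 0.78 (adjusted p = 0.00292), in 9 of 14 alternatives. *Gas7*, an F-BAR protein, gave 4.96, 4.94 and 4.94 in knockout cells and 6.57, 6.19 and 6.35 in wild-type cells. No knockout array was above background, so that *Gas7* was at least 1.54-fold lower there on the background-corrected scale (limma adjusted p = 4.86e-05). *Fnbp1l*, an F-BAR protein that activates N-WASP, fell by 0.54 (adjusted p = 0.00596), in 7 of 14 alternatives.

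Among 20 tested genes of actin turnover 1 rose and 1 fell, both of them actin bundlers. The shares over all genes were 6.69% called higher and 8.4% called lower. *Fscn1*, or fascin, which bundles the filaments of filopodia, gave 11.04, 11.09 and 11.39 in knockout cells and 10.21, 10.12 and 10.04 in wild-type cells. It rose by 1.05 (SE 0.12; adjusted p = 0.000289). *Lcp1*, or L-plastin, the bundler of blood cells, was above background on all wild-type arrays and on no knockout array. On the background-corrected scale it was at least 1.33-fold lower in knockout cells (limma adjusted p = 0.000578). The remaining 18 genes did not pass, among them the other plastin measured, *Pls3* (-0.11, adjusted p = 0.472).

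**Figure D4:**
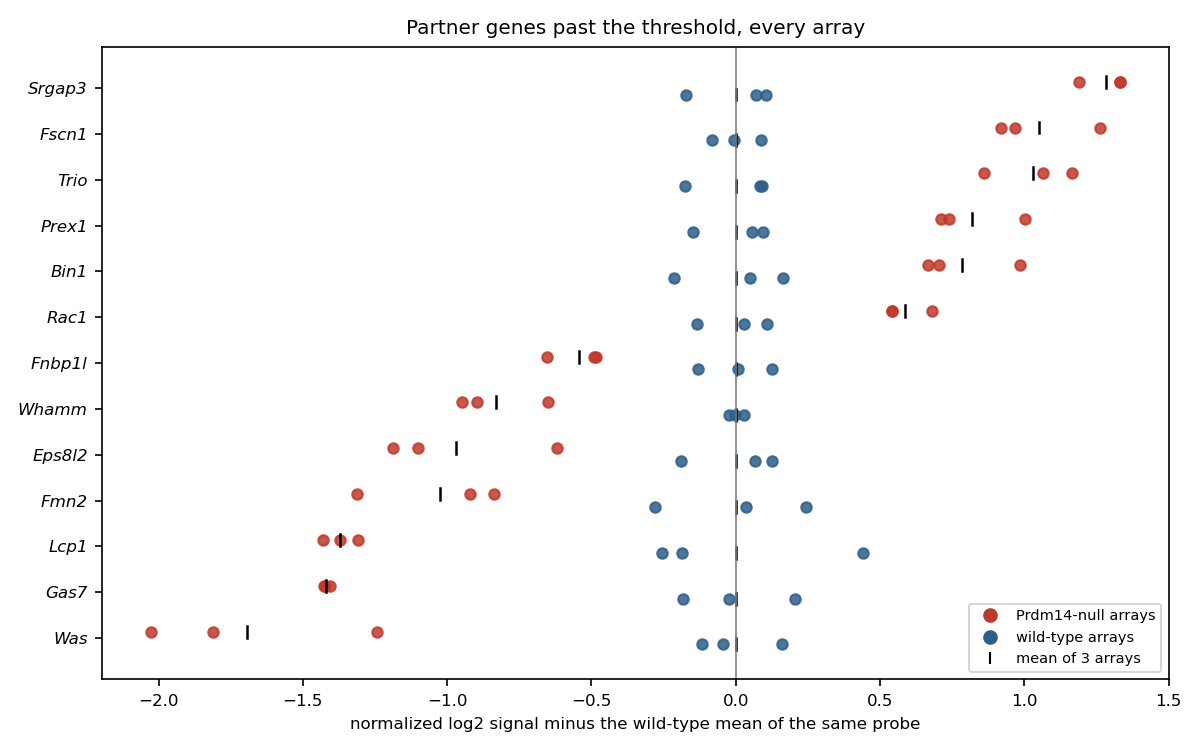
Normalized log2 signal minus the wild-type mean of the same probe (horizontal axis) for the 13 partner genes past the threshold, in 3 *Prdm14*-null (red, upper) and 3 wild-type (blue, lower) samples a gene, with a bar at each mean. The genotypes do not overlap in any of the 13, which were picked by their adjusted p. Of all tested probes, 42.3% show no overlap. The mean shift runs between 1.28 for *Srgap3* and -1.69 for *Was*.

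*Was* and *Lcp1* are also on the list of blood markers given above. Of the 7 epithelial markers 6 were tested. *Esrp1*, a splicing factor of epithelia, rose by 3.00 (limma adjusted p = 4.65e-05) and *Krt8* fell by 0.89 (adjusted p = 0.000877). The other 4 stayed below the threshold. Of all genes, 6.69% were called higher and 8.4% lower. *Esrp1* was above background on all knockout arrays but on only 1 wild-type array. Its difference was 1.67 in the authors' processed values. The summed signal of the 6 tested epithelial markers was 4712 to 6397 in knockout samples and 2952 to 5719 in wild-type samples. Their part in the values of *Baiap2l1*, *Eps8* and the partner genes was not tested. Of 8 fibroblast markers only *Thy1* had a listed probe. It was above background on all knockout arrays and on no wild-type array. On the background-corrected scale it was at least 2.51-fold higher in knockout cells (limma adjusted p = 0.000213). *Thy1* too passed the filter on dim probes through 1 genotype alone. The trophectoderm list had 4 tested genes, of which *Krt8* alone was called at the brightest probe, while *Tfap2c* fell at another of its 3 probes. The lists of primitive endoderm and neural markers had 1 tested gene each, *Dab2* (1.10, adjusted p = 0.0586) and *Nes* (0.10, adjusted p = 0.705).

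The genes whose log2 signals followed that of *Baiap2l1* most closely over the 6 arrays were *2410141K09Rik*, *Scn3a* and *Kctd12b*, each with a Pearson correlation of 0.999. For *Nckap1l* they were *Atp1b1* (0.999), *Khdc1c* (0.999) and *Heph* (0.998). These correlations are descriptions over 6 arrays in 2 genotypes. Of the 8342 other genes, 10.6% exceeded a correlation of 0.9 with *Baiap2l1* and 10.9% with *Nckap1l*.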

How the data were processed

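Total RNA of 3 *Prdm14* knockout and 3 wild-type control samples was hybridised to Illumina Mouse WG-6 arrays, 1 sample per array. The authors deposited raw signal intensities beside a deposited detection p-value, whose steps are 1 in 936. The authors also deposited processed values of 15961 probes on a log2 scale, used here as an alternative. The submitters' processing notes name lumi; neither its version nor its settings are stated. The processed table holds exactly the probes detected at p under 0.01 by 1 array or more.

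Intensities were background-corrected with limma 3.58.1 in R 4.3.3 (normal-exponential model, negative controls inferred from the detection p-values, offset 16), quantile-normalized and log2-transformed. The 14436 probes detected (p under 0.01) by 3 or more of the 6 arrays were tested with lmFit and eBayes, with genotype as the only term, Benjamini-Hochberg adjustment over all tested probes and a threshold of 0.01. The code was tested on simulated data. The number of arrays limits the precision. No signal was identical between arrays at the same probe (0).

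Gene symbols came from the platform annotation, which lists 13848 of the 45281 probes, 13829 of them matched to identifiers of GRCm38.p6. Every gene of the lists with a probe there was detected on 1 array or more. A gene with no listed probe may therefore have been on the array at background. Each gene of a partner list was read at its tested probe with the highest mean signal. Members are given probe by probe, partner genes where past the threshold, and 3 genes of most similar pattern for each of the 2 genes that chose the set. The members and lists were chosen with earlier results of these data known. Promoter windows are those of a RefSeq table of GRCm38.p6, which held 6 windows for 5 of the 10 members. Alternatives changed the background correction, offset, normalization, starting values, probe filter, variance model, replicate block and threshold, and left out each sample in turn.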

Additional observations from a re-analysis of the deposited data

How the results depend on the processing

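*Eps8* was past the threshold in every alternative. So were *Baiap2l1* and *Nckap1l*, but their changes chose the set, so for them this is no test. *Wasf2* joined these 3 genes at an adjusted p under 0.05 (4 member probes). Neither a member probe nor a called partner gene changed direction. Marker and neighbour genes were not run under the alternatives. At an adjusted p under 0.05, 3669 probes and 24 partner genes were called, against 1986 and 13. Leaving out 1 sample gave 1192 (without knockout replicate 2) to 1597 probes, 8 (without wild-type replicate 3) to 12 partner genes and 3 member probes each time; these fits have fewer samples. With a replicate block, 1588 probes, 11 partner genes and 3 member probes were called. Samples sharing a number deviated with correlations of -0.03, -0.06 and -0.12, so the numbers were not taken to pair them. The size of change of *Baiap2l1* was 4.16 without background correction, 4.58 with an offset of 50 and 3.44 in the authors' processed values. For *Nckap1l* it was -1.11, -1.24 and -0.90. Some alternatives called more at the unchanged threshold. No background correction gave 2493 probes and 17 partner genes, and an offset of 50 gave 2366 and 17. The authors' processed values gave 2430 and 18, and the other variance model 2622 and 18. *Capzb*, *Fnbp1* and *Tiam1* were added in each of these, and *Evl*, *Rhoq* and *Brk1* in some. Without the filter on dim probes, 1450 probes and 9 partner genes were called. Calls of *Fnbp1l*, *Rac1*, *Bin1*, *Eps8l2* and *Fmn2* were lost in some alternatives, with adjusted p of at most 0.0275. *Fscn1*, *Gas7*, *Lcp1*, *Prex1*, *Srgap3*, *Trio*, *Was* and *Whamm* passed in all 14 alternatives. Of these, *Gas7*, *Lcp1* and *Prex1* entered the test through 1 genotype alone, so for them repeated passing is no support. Probes near background, such as *Baiap2l1* in wild-type cells and *Gas7* and *Lcp1* in knockout cells, give only a bound.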

Other observations

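The genes that lie next to the members were looked up, 3 protein-coding genes on each side. Of 60 neighbours 29 were tested, of which 2 were higher and 1 was lower in *Prdm14*-deficient cells. Over all genes 6.69% were called higher and 8.4% lower, so these counts do not set the neighbours apart. Beside *Baiap2l1*, *Nptx2* rose by 0.48 (limma adjusted p = 0.00505), while *Bri3* on the other side differed by -0.00 (adjusted p = 0.996). Beside *Nckap1l*, the phosphodiesterase gene *Pde1b* fell by 1.57 (adjusted p = 6.53e-05), and *Ppp1r1a*, the next gene, had a difference of -0.80 (adjusted p = 0.018). Near *Eps8*, *Dera* rose by 0.54 (adjusted p = 0.00552), while *Strap* between them differed by 0.08 (adjusted p = 0.607). These neighbours were listed from the order of genes in GRCm38.p6.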
